A study of Mus musculus with 28 samples.

Results

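The response of CA1 transcripts to kainic acid was compared between ribosomes of CaMK2a-Cre cells and the whole tissue they came from. All 12 libraries of the CaMK2a line, of 28 in the series, enter this comparison. For each gene it takes the log2 fold change from PBS to kainic acid in the immunoprecipitate (IP), minus the log2 fold change in the lysate before the IP (input). A difference above 0 therefore means a more positive response in the IP, and one below 0 a more negative one.

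The mice were C57BL/6, 3 to 4 weeks old, of the genotype CaMK2a-Cre/+; LSL-Rpl22-HA/+. The 4 groups were PBS IP, kainic acid IP, PBS input and kainic acid input, each with 3 libraries from pools of CA1 tissue of 4 mice. Labels put dissection 6 h after the injection, whereas the deposited column names place the PBS samples at 0 h, so the time after PBS is uncertain. Every group, input included, carries both the Cre and the tagged allele, so no library comes from untagged animals.

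Kainic acid is an agonist of ionotropic glutamate receptors that provokes seizures, and strong firing switches on immediate early genes and, later, genes for secreted and synaptic proteins. In this mouse, Cre under the CaMK2a promoter, active mainly in excitatory forebrain neurons, opens an HA-tagged copy of the ribosomal protein gene Rpl22. Anti-HA antibody then pulls ribosomes with the transcripts bound to them, while the input holds RNA of excitatory neurons, interneurons, glia and vessels alike. In bulk RNA of this kind, a change in the number of cells of a type and a change in RNA per cell cannot be told apart.

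The libraries held 6.06 to 15.3 M counts. The labelled enrichment was visible in the marker lists, in summed CPM (counts scaled to library size, with TMM factors over the 12 libraries). The 14 CA1 pyramidal markers tested summed to 13647 to 15148 CPM in the PBS IP and 10436 to 11824 in the PBS input. The 11 GABAergic markers summed to 157 to 269.6 CPM in the PBS IP against 1313 to 1339 in the PBS input. For 14 astrocyte markers the sums were 2036 to 2996 and 11877 to 12210 CPM, and for 16 microglial markers 64.5 to 102 and 753 to 757 CPM. As the ratio of mean sums, IP to input after PBS, these were 1.29 for CA1 pyramidal, 0.15 for GABAergic, 0.20 for astrocyte and 0.10 for microglial markers. Not all lists were low in the IP: the ratio was 1.07 for 12 markers of interneuron classes, 0.83 for dentate granule, 0.67 for mural and fibroblast and 0.56 for oligodendrocyte precursor markers. Such sums weigh abundant members most. Of the interneuron classes, Sst and Npy had mean levels of 101 and 2.63 CPM in the PBS IP against 709 and 35.7 in the PBS input. The other members of that list together were therefore higher in the IP. Inputs of a group were uneven in 8 ependyma and choroid plexus markers. These summed to 329 to 3924 CPM in the PBS input and 48.0 to 4341 in the kainic acid input. No marker held in both tables was at 0 in all IP libraries. The authors' filter to a sum of at least 4 fixed this outcome in advance.

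Many genes responded in each fraction, and few were called for a difference between them. Of 11623 genes tested, 2198 (18.9%) rose and 1979 (17%) fell in the IP, and 2048 (17.6%) rose and 1696 (14.6%) fell in the input, by edgeR's quasi-likelihood test at a Benjamini-Hochberg adjusted p under 0.05. With upper-quartile scaling the split was 1888 higher and 2501 lower in the IP, and 1726 higher and 2239 lower in the input. The response itself differed between the fractions for 12 genes, 0.103% of those tested, with 5 (0.043%) higher and 7 (0.0602%) lower in the IP. At an unadjusted p under 0.05 the number was 984, or 8.47%. For 7397 genes (63.6%) the 95% interval of the difference lay wholly within 2-fold in either direction, and the median difference over all genes was 0.00 on the log2 scale.

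**Figure D1:**
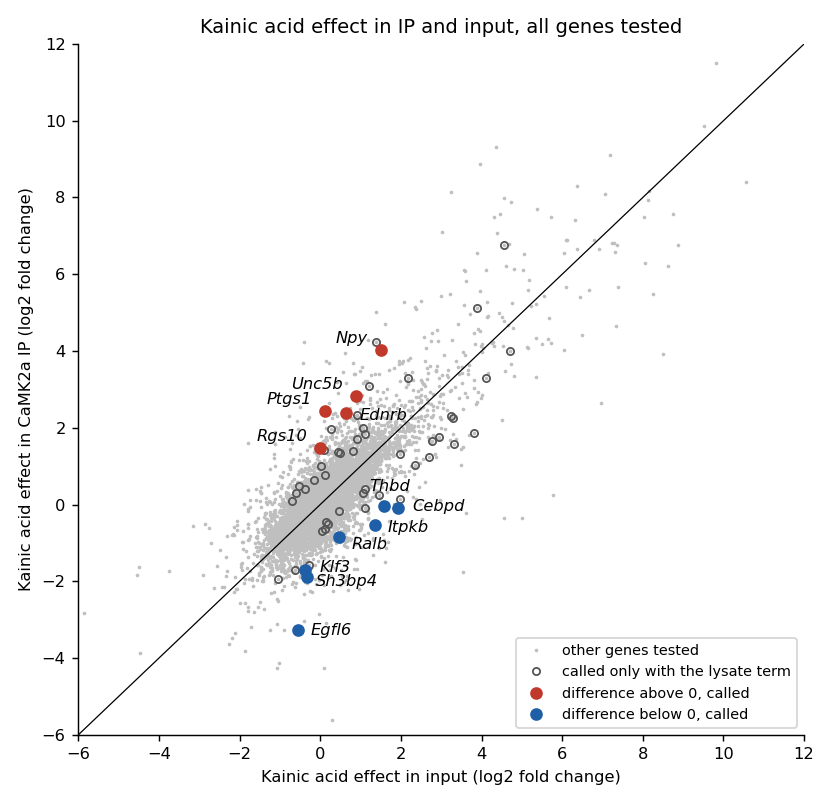
Kainic acid effect in the input (horizontal axis) and in the CaMK2a IP (vertical axis), both as log2 fold change from PBS, for 11623 genes; the line marks equal effects. The 5 red genes lie above the line and the 7 blue genes below it, and open circles mark genes called only when the lysate pool was a term of the fit.

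The 5 genes with the more positive response in the IP were Unc5b, Ptgs1, Npy, Ednrb and Rgs10. Unc5b, a netrin receptor of the UNC5 family, had 4.69, 5.04 and 4.34 CPM in the 3 PBS IP libraries and 27.9, 41.7 and 29.8 in the 3 kainic acid IP libraries. In the input it had 41.5, 45.7 and 45.8 CPM after PBS and 77.3, 70.4 and 96.7 after kainic acid. In neither fraction did the groups overlap, and in each pool the IP library stood below its input library. The rise was 7.09-fold in the IP and 1.83-fold in the input, a difference of 1.95 ± 0.24 (SE) on the log2 scale with adjusted p = 0.00176 (edgeR).

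Ptgs1 encodes cyclooxygenase 1, the constitutive enzyme that makes the prostaglandin precursor. It stood at 1.54, 1.64 and 1.21 CPM in the PBS IP, which are 23, 12 and 12 counts, and at 8.22, 8.38 and 7.29 CPM in the kainic acid IP. The input gave 20.0, 24.2 and 20.4 CPM after PBS and 26.9, 24.9 and 18.2 after kainic acid, so the groups separated in the IP and overlapped in the input. The difference was 2.32 ± 0.29 (SE) on the log2 scale, with a 5.41-fold rise in the IP, no call in the input (log2 fold change 0.12, adjusted p = 0.645) and adjusted p = 0.00206 for the difference (edgeR).

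Npy, the precursor of the inhibitory peptide neuropeptide Y, had 1.54, 4.63 and 1.72 CPM in the PBS IP and 26.2, 56.3 and 33.2 after kainic acid. In the input it went from 34.0, 33.3 and 39.7 CPM to 79.1, 102 and 120.5. Both fractions rose without overlap, 16.2-fold in the IP and 2.82-fold in the input, and the difference was 2.52 ± 0.44 (SE) on the log2 scale (adjusted p = 0.0328, edgeR). PBS IP replicate 2 was the highest of its group. Calls of Npy held in only 3 of 12 refits that each left out 1 library.

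Ednrb, the type B endothelin receptor, rose from 5.36, 9.26 and 5.35 CPM to 40.7, 23.1 and 37.9 in the IP, and from 43.5, 42.9 and 45.5 to 74.3, 66.1 and 63.3 in the input. Its difference was 1.76 ± 0.29 (SE) on the log2 scale (adjusted p = 0.0271, edgeR). Rgs10, a regulator of G protein signalling, had 3.22, 3.95 and 2.83 CPM in the PBS IP and 8.78, 9.05 and 9.61 in the kainic acid IP. Its input values were 19.6, 18.5 and 17.3 after PBS and 16.7, 18.5 and 20.1 after kainic acid, so only the IP groups separated. The difference of Rgs10 was 1.48 ± 0.25 (SE) on the log2 scale (adjusted p = 0.0271, edgeR).

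Levels of these 5 genes enter the test that called them, and a low PBS IP level raises the difference by itself. Each stood below its input level in the PBS IP, as did 51.0% of all genes tested. In every kainic acid pool the IP library was still below the input library of that pool. The log2 ratio of IP to input ran from -3.97 to -3.62 for Ptgs1 in the PBS pools and from -1.70 to -1.31 in the kainic acid pools. For Unc5b it ran from -3.37 to -3.12 and from -1.70 to -0.75. As markers of other cells, the 16 microglial genes summed to 71.3 to 154 CPM in the kainic acid IP against 64.5 to 102 in the PBS IP, and to 840.0 to 1085 against 753 to 757 in the input. None of the 16 was called for the difference, 14 had values above 0, beside 5899 of all 11623 genes tested, and the list median was 0.33. The 11 GABAergic markers summed to 184 to 396 CPM in the kainic acid IP against 157 to 269.6 after PBS, with 1587 to 1649 against 1313 to 1339 in the input. Of these 11, 4 had differences above 0 and 7 below, the list median was -0.115 and none was called. Astrocyte markers summed to 1818 to 3643 CPM in the kainic acid IP, a range that contained the PBS one. The 17 endothelial markers summed to 90.1 to 178 CPM in the kainic acid IP against 55.0 to 87.2 after PBS, and to 573 to 730 against 349 to 384 in the input. For the 12 markers of interneuron classes, Npy among them, the IP sums were 3283 to 3854 against 2518 to 2861 CPM. Their input sums were 3057 to 4459 against 2280 to 2816 CPM. Of these 2 lists Npy alone was called. The part of other cells' RNA in these 5 responses was not tested.

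Among genes with the more negative response in the IP, Klf3, Sh3bp4 and Egfl6 fell more in the IP than in the input. Klf3 is a zinc-finger repressor of the Krüppel-like family. Its level was 106, 125 and 118 CPM in the PBS IP and 34.6, 33.3 and 26.5 in the kainic acid IP, without overlap. The input fell from 71.5, 81.6 and 78.9 CPM to 61.5, 67.1 and 54.6. Klf3 thus stood above the input after PBS and below it after kainic acid in every pool. The fall was 3.71-fold in the IP and 1.26-fold in the input, a difference of -1.55 ± 0.17 (SE) on the log2 scale (adjusted p = 0.00142, edgeR).

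Sh3bp4, a regulator of endocytosis, had 34.7, 33.2 and 28.9 CPM in the PBS IP and 7.67, 12.5 and 9.27 in the kainic acid IP. The input held 30.7, 34.9 and 33.4 CPM after PBS and 28.0, 23.8 and 24.3 after kainic acid. The fall in the IP was 3.26-fold, the input change did not pass (log2 -0.38, adjusted p = 0.0727), and the difference was -1.33 ± 0.23 (SE) on the log2 scale (adjusted p = 0.028, edgeR).

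Egfl6, a secreted protein with EGF-like repeats, had the largest fall of the called genes. It went from 11.2, 13.4 and 11.7 CPM in the PBS IP to 1.95, 1.01 and 0.883 in the kainic acid IP, the latter 14, 9 and 8 counts. The input had 5.37, 6.68 and 5.04 CPM after PBS and 3.34, 3.45 and 4.98 after kainic acid, and these groups came close without overlapping. The 9.57-fold fall in the IP gave a difference of -2.70 ± 0.42 (SE) on the log2 scale (adjusted p = 0.0148, edgeR).

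Thbd and Cebpd rose in the tissue and not in the IP. Thbd encodes thrombomodulin, the cell-surface receptor of thrombin. It had 20.9, 23.4 and 19.5 CPM in the PBS IP and 21.8, 21.1 and 19.4 in the kainic acid IP, which overlap. In the input it rose from 19.4, 18.1 and 18.8 CPM to 57.7, 48.0 and 63.6. The input rise was 3.00-fold, and the IP value was -0.03 on the log2 scale. The difference was -1.62 ± 0.19 (SE), with a 95% interval of -2.02 to -1.22 and adjusted p = 0.00142 (edgeR).

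Cebpd, the transcription factor C/EBP delta of acute-phase and inflammatory responses, had 5.56, 6.68 and 7.97 CPM in the PBS IP and 9.20, 5.59 and 4.42 in the kainic acid IP. Its input rose from 6.22, 7.70 and 7.22 CPM to 24.6, 23.9 and 31.7, a 3.79-fold rise. The difference was -2.0 ± 0.35 (SE) on the log2 scale (adjusted p = 0.0328, edgeR). The 17 endothelial markers tested, of which the list median difference was -0.30, summed to 55.0 to 87.2 CPM in the PBS IP and 90.1 to 178 in the kainic acid IP. In the input they summed to 349 to 384 and 573 to 730 CPM, and none was called for the difference. Their part in the values of Thbd and Cebpd was not tested.

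Itpkb and Ralb moved in opposite directions. Itpkb, an inositol trisphosphate 3-kinase, had 25.4, 24.1 and 26.6 CPM in the PBS IP and 23.1, 11.9 and 17.8 in the kainic acid IP. The input rose from 39.5, 38.4 and 39.3 CPM to 104, 80.2 and 119. Every kainic acid IP library lay below the PBS IP libraries and every kainic acid input library lay above the PBS input libraries. The changes were a 1.45-fold fall (adjusted p = 0.0386) and a 2.58-fold rise, a difference of -1.91 ± 0.26 (SE) on the log2 scale (adjusted p = 0.00446, edgeR).

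Ralb, a small GTPase of vesicle traffic, had 24.8, 26.2 and 22.7 CPM in the PBS IP and 14.1, 11.5 and 15.5 in the kainic acid IP. Its input went from 18.0, 21.5 and 17.7 CPM to 29.3, 22.9 and 26.4. The fall was 1.79-fold and the rise 1.37-fold, a difference of -1.30 ± 0.22 (SE) on the log2 scale (adjusted p = 0.0271, edgeR).

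**Figure D2:**
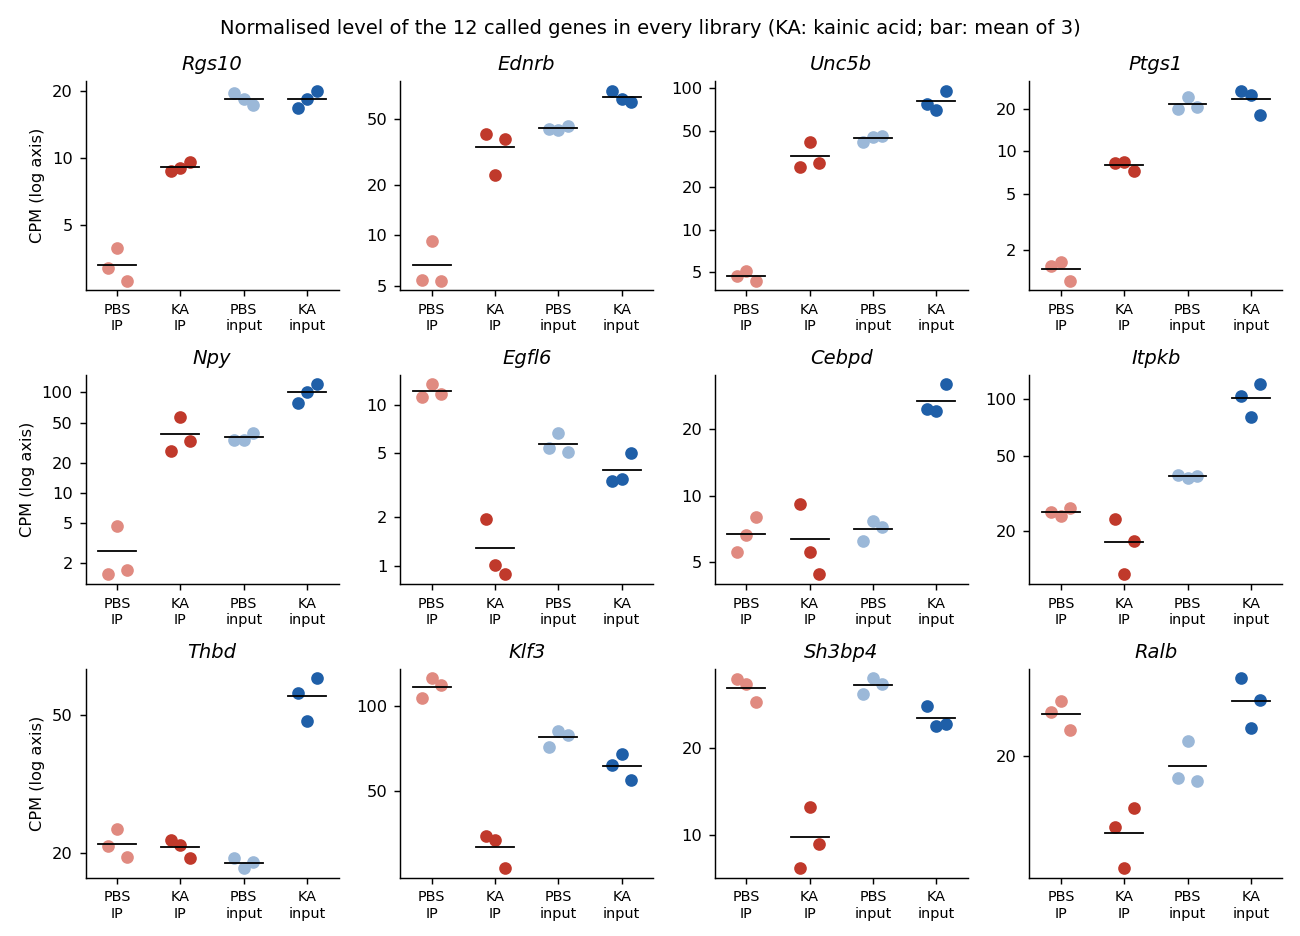
Level of each of the 12 called genes in all 12 libraries, in CPM on a log axis; points are libraries, bars are means of 3. Unc5b, Ptgs1, Npy, Ednrb and Rgs10 rise in the IP from levels well below the input, Klf3, Sh3bp4 and Egfl6 drop in the IP, and Thbd and Cebpd rise in the input and are not called in the IP.

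The log2 ratio of IP to input did not overlap between the 3 kainic acid and the 3 PBS pools for any of the 12 genes, which is so for 15.7% of all genes tested. These ratios hold the same values that called the 12 genes, so their separation follows largely from that choice. Unc5b, Ptgs1, Klf3, Thbd and Itpkb kept their call without any 1 of the 12 libraries. Without 1 library or another the call ended for Cebpd and Sh3bp4 (kept in 3 of 12 refits), Ralb and Rgs10 (4), Ednrb (6) and Egfl6 (7), with adjusted p of at most 0.174 in these genes. The differences kept their sign in all these refits, from 2.15 to 3.11 for Npy, the widest range among genes above 0, and from -3.04 to -2.45 for Egfl6. Positions on mm10 are chromosome 10, 60762594 to 60831600 for Unc5b, chromosome 2, 36216744 to 36252275 for Ptgs1, and chromosome 5, 64803523 to 64832901 for Klf3. Exons of Cebpd, Itpkb, Klf3 and Ptgs1 overlap exons annotated on the other strand in GENCODE, and the strand of the reads is not stated, so reads of these neighbours and of the 4 genes cannot be separated.

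Each lysate pool was read, from its replicate number, as 1 input and 1 IP library. A fit with the pool as a term called 57 genes, 0.49% of those tested. Of these, 26 (0.224%) were higher and 31 (0.267%) lower in the IP, and they include all 12 above. The other 45 are described here with the values of the fit without the pool, in which none of them passed, and they were picked out after their values were seen. In the kainic acid group, pool 2 had the lowest Fos, Egr1 and Arc of the 3 pools in both fractions. Fos stood at 642, 331 and 555 CPM in the 3 kainic acid IP libraries and at 607, 409 and 509.6 in the 3 inputs of the same pools.

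Among the 31 genes on the lower side were immediate early and synaptic genes, of which 8 are given here. The list of 27 activity-regulated effectors, which holds Arc, Nptx2 and Plk2, had 17 differences above 0 and 10 below, so these 3 do not stand for their list. Nr4a1, an orphan nuclear receptor, had a 3.37-fold rise in the IP and a 7.65-fold rise in the input. Arc, which removes AMPA receptors from synapses, rose 9.76-fold and 17.2-fold. Its IP libraries went from 127, 124 and 150.2 CPM to 1446, 853 and 1619, and its inputs from 85.6, 88.1 and 115 to 1821, 1289 and 1861. Both fractions responded strongly, and the difference of Arc was -0.82 ± 0.28 (SE) on the log2 scale (adjusted p = 0.382 without and 0.00544 with the pool, edgeR).

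Egr1, a zinc-finger transcription factor, rose 3.14-fold in the IP and 6.82-fold in the input, and Junb, a Jun family member of AP-1, rose 4.76-fold and 9.86-fold. Each started from a higher PBS level in the IP than in the input, for Egr1 620, 516 and 593 CPM against 267, 258 and 294. Nptx2, a pentraxin that gathers AMPA receptors, rose 16-fold and 26.1-fold. Plk2, a kinase of synaptic scaling, rose 2.50-fold and 3.93-fold, and Rcan1, an inhibitor of calcineurin, 2.02-fold and 5.08-fold. Arpp21, a cyclic AMP-regulated phosphoprotein, rose 4.94-fold and 9.51-fold.

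Other genes of the response to firing were not called for the difference in either fit, and no test compared them with the called ones. Fos rose 113-fold in the IP and 155-fold in the input, and Npas4, an activity-dependent transcription factor of neurons, 113-fold and 150.2-fold. Their differences of -0.45 (95% interval -1.26 to 0.35) and -0.41 (-1.19 to 0.36) had the same sign as those of the called genes above. Inhba, the activin A subunit, rose 118-fold and 112-fold, with an interval of -0.43 to 0.60. Bdnf, the neurotrophin, rose 10.8-fold and 11.5-fold, with an interval of -0.64 to 0.45. Scg2, a secretory granule protein, rose 9.86-fold in the IP and 7.71-fold in the input, and its interval of -0.13 to 0.83 held 0. Homer1, a postsynaptic scaffold, rose 4.32-fold and 6.41-fold, with an interval of -1.22 to 0.09. All these intervals are from the fit without the pool. With the pool, Homer1 had -0.58 ± 0.135 (SE, adjusted p = 0.0949, edgeR) and Scg2 0.32 ± 0.12 (adjusted p = 0.342, edgeR). Fos, Npas4, Bdnf and Inhba had -0.52, -0.41, -0.11 and 0.08 with the pool. The pool ratios of IP to input did not overlap between treatments for Scg2 and Homer1, as for 15.7% of all genes tested. They overlapped for Fos, Npas4, Inhba and Bdnf.

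Cd44 and Serpina3n were the members of the list of reactive astrocyte genes called with the pool term, both lower in the IP. The 21 tested members of that list had a median difference of 0.05 (-0.10 with the pool term), with 11 values above 0 and 10 below and no call without the pool term. Cd44, a hyaluronan receptor, had 5.56, 3.27 and 4.74 CPM in the PBS IP and 16.9, 8.83 and 16.2 in the kainic acid IP, against 7.41, 6.22 and 9.81 and then 86.4, 49.8 and 97.0 in the input. Its rises were 2.98-fold and 10.1-fold. Sbno2, a transcriptional co-regulator in cytokine responses, rose 3.64-fold and 14.1-fold. Serpina3n, a secreted protease inhibitor, rose 1.32-fold in the IP and 2.18-fold in the input. Ehd2, a membrane ATPase of caveolae, and Akap12, a scaffold for protein kinase A, rose 3.91-fold and 2.74-fold in the input and were not called in the IP.

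A further 8 genes, Egfl6 and Sh3bp4 among them, fell in the IP and were not called in the input. Bcan, which encodes brevican of the extracellular matrix, fell 1.61-fold in the IP while its input value was 0.04 on the log2 scale. Nhsl1 fell 2.97-fold and Zfhx4, a homeodomain zinc-finger factor, 3.29-fold. Mras and Ptbp3, a small GTPase and an RNA-binding protein, fell 1.36-fold and 1.43-fold, and Gnai2, a G protein alpha subunit, 1.56-fold.

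On the higher side Tnfaip6, a hyaluronan-binding protein, went from 0.804, 3.00 and 1.31 CPM to 39.3, 13.0 and 33.7 in the IP, and from 22.3, 27.0 and 20.6 to 74.3, 50.1 and 59.3 in the input. Thbs1, the matricellular glycoprotein thrombospondin 1, rose 109-fold in the IP and 23.7-fold in the input. Its kainic acid IP libraries held 256, 79.0 and 135 CPM, each above the input library of its pool at 119, 56.0 and 69.6. Sst, the precursor of somatostatin in a class of interneurons, rose from 80.6, 119 and 104 CPM to 1159, 414 and 1023 in the IP and from 641, 676 and 809.9 to 1679, 1128 and 2117 in the input. The rises of Sst were 8.57-fold and 2.32-fold, and in every pool the IP library stayed below the input library.

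Tgfbr2, a receptor of transforming growth factor beta, rose 5.05-fold in the IP and 1.89-fold in the input. Bag3, a co-chaperone of Hsp70, rose 34.7-fold and 14.9-fold. Cnr1, the cannabinoid receptor CB1, rose 1.57-fold in the IP and was not called in the input. Calb1, the calcium-binding protein calbindin, fell 1.62-fold in the input and was not called in the IP. Hmgcs1, an enzyme early in cholesterol synthesis, had the smallest difference of the 57, with rises of 2.62-fold and 1.74-fold.

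Of the 26 genes on the higher side, 23 stood below their input level in the PBS IP and 14 still did after kainic acid. Of the 31 on the lower side the numbers were 13 and 25. Over all genes tested, 51.0% were below the input in the PBS IP. Both starting level and direction enter these counts, since a positive difference raises the ratio of IP to input by definition.

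**Figure D3:**
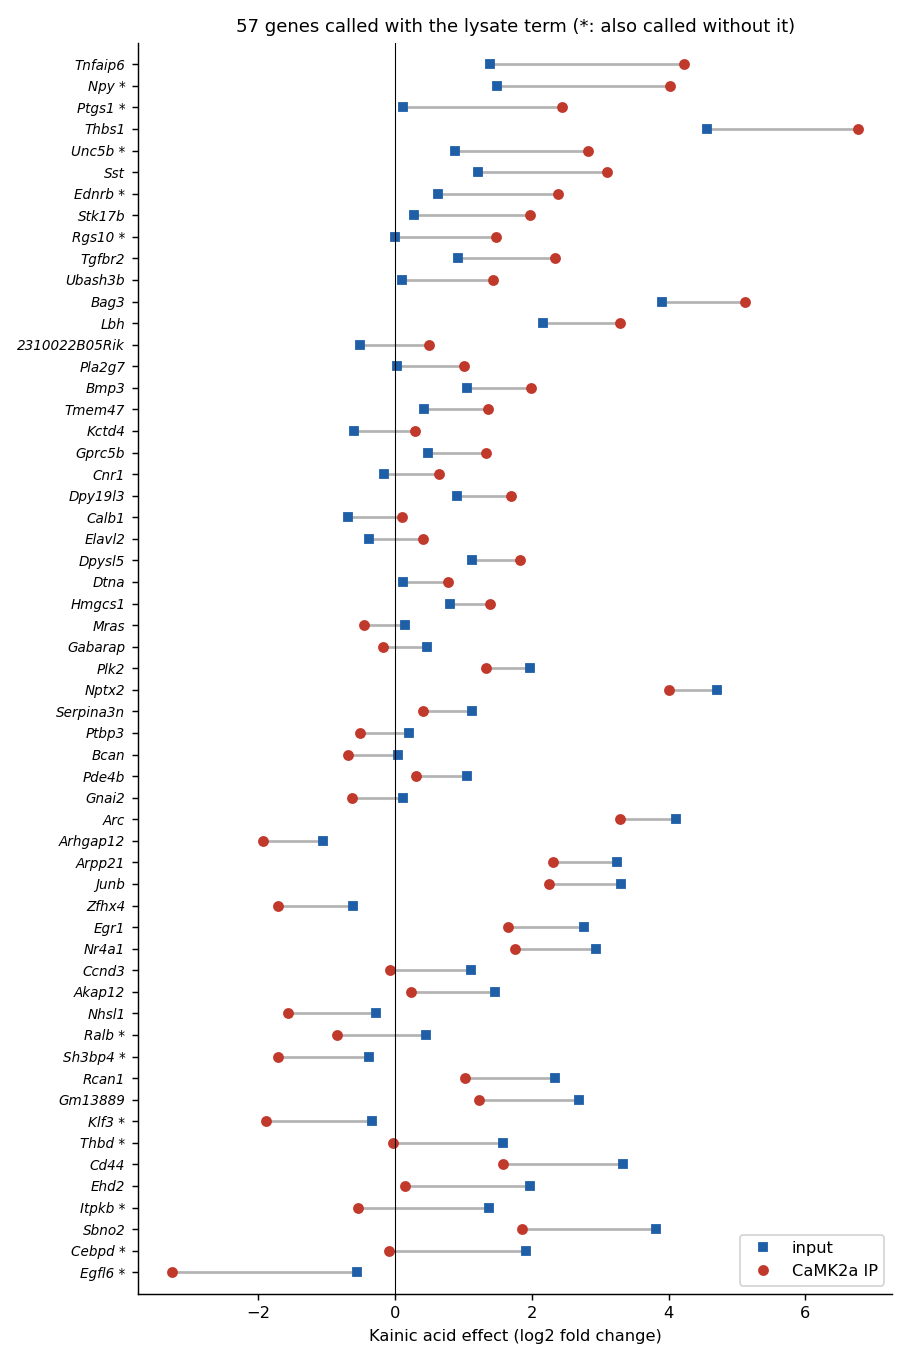
Kainic acid effect in the input (blue squares) and the CaMK2a IP (red circles), as log2 fold change, for the 57 genes called with the lysate pool as a term, in order of the difference; asterisks mark the 12 called without it. Genes at the top responded more in the IP, such as Tnfaip6 and Npy, and genes at the bottom more negatively in the IP, such as Egfl6 and Cebpd.

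Promoters are shown for 3 of these genes whose sequence holds a full cyclic AMP response element, the binding site of the activity-dependent factor CREB. They are printed together with that of Unc5b, which has none. RefSeq promoters of GRCm38.p6 were found for 41 of the 57 genes. Each line gives the 250 bases before a start site, 5′ to 3′ on the gene's strand, with matches to TGACGTCA or to the AP-1 site TGANTCA, on either strand, in capitals.
Sst, chr16:23890845-23891094, minus strand: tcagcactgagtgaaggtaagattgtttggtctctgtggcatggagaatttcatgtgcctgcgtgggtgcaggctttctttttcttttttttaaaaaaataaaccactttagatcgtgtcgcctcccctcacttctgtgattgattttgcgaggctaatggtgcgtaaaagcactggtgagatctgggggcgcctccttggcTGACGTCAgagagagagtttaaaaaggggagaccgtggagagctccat
Plk2, chr13:110394794-110395043, plus strand: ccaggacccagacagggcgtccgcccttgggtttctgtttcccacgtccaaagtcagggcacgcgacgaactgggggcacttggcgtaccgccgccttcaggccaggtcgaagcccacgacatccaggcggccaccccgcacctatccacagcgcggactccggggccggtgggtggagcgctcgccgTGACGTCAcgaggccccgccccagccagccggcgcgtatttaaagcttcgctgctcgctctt
Rcan1, chr16:92400079-92400328, minus strand: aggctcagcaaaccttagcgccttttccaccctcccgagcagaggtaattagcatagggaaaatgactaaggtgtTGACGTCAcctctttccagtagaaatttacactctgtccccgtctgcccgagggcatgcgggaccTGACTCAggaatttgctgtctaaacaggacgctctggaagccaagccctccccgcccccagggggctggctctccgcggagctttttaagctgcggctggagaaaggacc
Unc5b, chr10:60831582-60831831, minus strand: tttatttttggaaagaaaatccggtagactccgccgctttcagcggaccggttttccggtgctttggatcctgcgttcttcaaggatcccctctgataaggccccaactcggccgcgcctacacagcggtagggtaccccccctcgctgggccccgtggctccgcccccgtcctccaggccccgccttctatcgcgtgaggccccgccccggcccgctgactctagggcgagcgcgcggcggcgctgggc

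The response element begins 48 bases before the start in Sst, 62 in Plk2 and 175 in Rcan1, where it lies in 1 of 2 listed promoters together with an AP-1 site at 110. Taking 1 promoter per gene, TGACGTCA was present in 2 of 41 genes, Sst and Plk2, and in 1.62% of all 27025 promoters. TGANTCA was present in 2 of 41, Bag3 and Tnfaip6, and in 6.87% of all. None of the 10 promoters found among the 12 genes called without the pool term held either. The genes with the response element lie on both sides of the difference: Sst had the larger response in the IP, and Plk2 and Rcan1 the larger response in the input. These matches describe letters in a window and not bound sites.

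The pathways around the leading genes were counted from lists of known members. Among 23 genes of netrin and UNC5 guidance Unc5b alone was called for the difference, and the list median was 0.14 beside 0.00 for all genes. Unc5a, Unc5c and Unc5d, the other UNC5 receptors, had differences of 0.14, -0.09 and 0.21 on the log2 scale. The ligand Ntn1 had 0.81, and Dcc, the attractive netrin receptor, 0.36. Robo2, a receptor of Slit proteins, had -0.51. In the IP 3 members rose and 6 fell, and in the input 1 rose and 7 fell. Of all genes tested, 18.9% rose and 17% fell in the IP, and 17.6% rose and 14.6% fell in the input.

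Of 14 genes of prostaglandin synthesis and reception Ptgs1 alone was called, and the median was 0.24. Ptgs2, the inducible cyclooxygenase, rose in both fractions by 4.88 and 4.5 on the log2 scale, with a difference of 0.38 (adjusted p = 0.731, edgeR). Pla2g4a, the phospholipase that frees arachidonic acid, had a difference of 2.22 ± 0.67 (SE), close to that of Ptgs1, which did not pass (adjusted p = 0.303, edgeR). The receptor Ptger4 had -0.66.

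The 14 Krüppel-like factors had a median of -0.25 and 1 call, Klf3. Klf2 had -1.21 without passing, and Klf4, Klf6 and Klf10 rose in both fractions with differences of 0.51, -0.27 and 0.42. Of 20 neuropeptide precursors Npy alone was called, with Sst added by the pool term. In each fraction 14 of the 20 rose, beside 18.9% of all genes tested in the IP and 17.6% in the input. Differences of the precursors ran from -2.12 for Trh, the thyrotropin-releasing hormone precursor, to 2.52 for Npy, with a median of 0.27.

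Across broader groups, the medians were small. Of all 11623 genes tested, 5724 had differences below 0 and 5899 above. Of the same genes, 18.9% rose in the IP and 17.6% in the input. Of 24 inducible transcription factors 20 rose in the IP and 23 in the input. Their median difference was -0.36, with 21 values below 0, no call without the pool term and 3 with it, Nr4a1, Egr1 and Junb. The 14 MAP kinase feedback inhibitors, phosphatases and Sprouty proteins, had -0.37, with 12 values below 0 and no call in either fit. The 27 activity-regulated effectors, all of which rose in the IP and 26 in the input, had a median of 0.25 and 3 genes called with the pool term, Arc, Nptx2 and Plk2, all lower in the IP. Of 27 cytokine and inflammatory genes Cebpd was called, and 17 rose in the IP and 21 in the input. Heat shock chaperones (20 genes, median 0.16), nuclear genes of oxidative phosphorylation (52, -0.08), ribosomal proteins (69, 0.04) and glutamate receptors (16, 0.01) had no call without the pool term. With it, Bag3 was called among the chaperones.

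**Figure D4:**
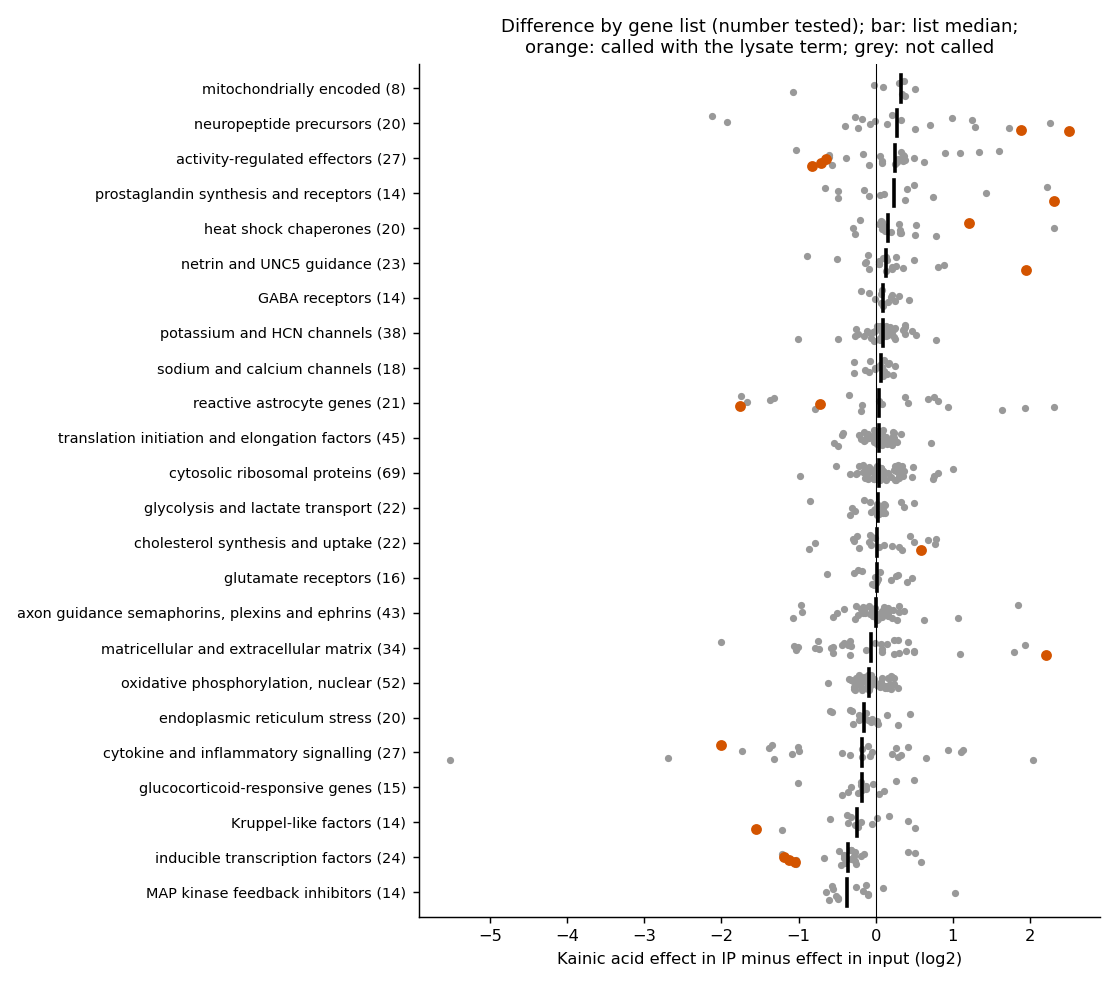
Difference of the kainic acid effect, IP minus input (log2), for the tested members of 24 gene lists; each point is a gene, bars are list medians, and orange marks genes called with the lysate pool as a term. Medians run from -0.37 for MAP kinase feedback inhibitors to 0.32 for mitochondrially encoded genes.

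The same contrast in the PV line, where Cre follows the parvalbumin gene, rests on 16 libraries with pools of 9 to 10 mice and 2.5 ng of RNA in place of 20 ng. It called 3 of 11862 genes (0.0253%): Vmp1, at 1.45, was higher in the IP, and Tll1 and Fam43a, at -2.47 and -1.70, were lower. None of the 12 CaMK2a genes was among them. Unc5b had 0.82 (95% interval -0.36 to 2.0) and Ptgs1 0.71 (-0.30 to 1.71) in the PV line. Klf3 had 0.15 (-0.48 to 0.77) and Thbd -0.28 (-1.27 to 0.72). Common variation between replicates was 39.2% in the PV line and 14.0% in the CaMK2a line, as the biological coefficient of variation. The PV values include replicate 4, which stood apart in mitochondrial share of counts. In the PV IP it had 0.80% and 0.91%, against 1.90% to 3.38% in the other replicates. In the PV input it had 4.10% and 4.83%, against 7.99% to 10.7%. Whether the lines differ was not tested.

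**Figure D5:**
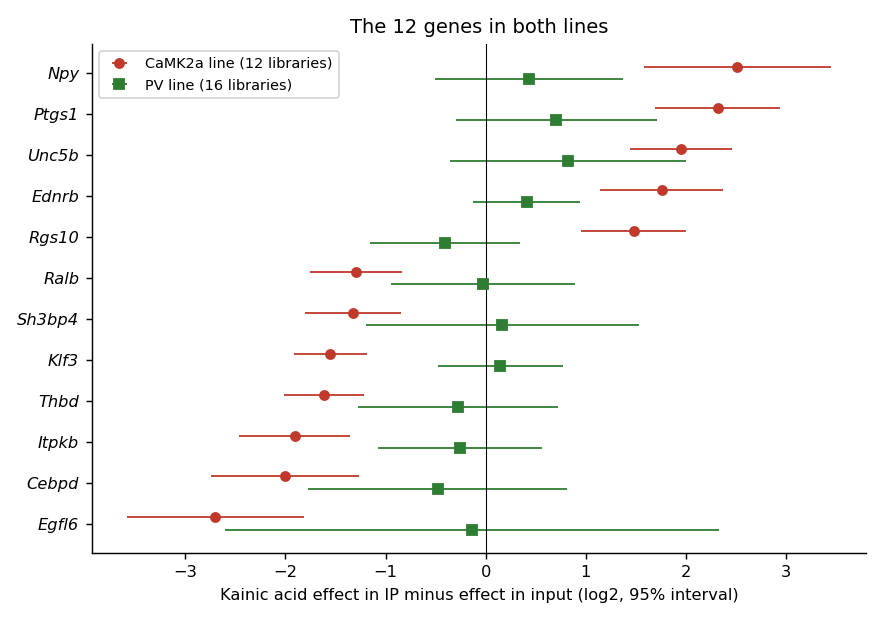
Difference of the kainic acid effect, IP minus input (log2), with 95% intervals, for the 12 genes in the CaMK2a line (red circles) and the PV line (green squares). In the PV line the interval of every one of the 12 holds 0.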

How the data were processed

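RNA was measured in 12 libraries of the CaMK2a line, 6 IP and 6 input, as amplified cDNA of 20 ng of RNA, read as single ends. Per the submitters' processing notes the authors used BWA, edgeR and mm10 (GRCm38), with versions not given in the sources used here. The deposited values analysed were raw counts of reads per gene, filtered by the authors to a sum of at least 4 per the file headers. Of 13384 genes in the IP table and 13758 in the input table, 13108 are in both and were joined by symbol.

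Tests were edgeR 4.0.16 quasi-likelihood tests in R 4.3.3 with TMM factors, filterByExpr at a minimum count of 10 and a prior count of 0.125, on the 4 group means. Standard errors were obtained by dividing each log2 value by the root of its F statistic, and p-values were adjusted over all genes by the Benjamini-Hochberg method. The script was tested on simulated counts. Alternatives were other scaling factors (relative log expression, upper quartile), other filters (none, or a minimum count of 10 throughout at least 1 group), DESeq2 1.42.0, the lysate pool as a block, and each library left out. Python 3.11.15 drew the figures.

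Per the series' design text an input was taken from each IP lysate, so a replicate number within a treatment was read as 1 pool. Deviations of same-numbered IP and input libraries correlated at 0.213, 0.194 and 0.149 after kainic acid and at 0.0255, 0.054 and 0.109 after PBS. Pairs of unlike number ran from -0.148 to -0.0453 after kainic acid and from -0.093 to 0.0547 after PBS. The ranges of same-numbered and other pairs thus overlapped after PBS. Deviations from a group mean cancel within the group, so positive values of same-numbered pairs push those of unlike pairs down. The contrast between them is therefore not separate evidence that replicate numbers name pools. Members, gene lists and tests were chosen with earlier results of these data known. Genes named are those called at a mean log2 CPM of at least 2, up to 12 per direction, with called list members; Fos, Npas4, Inhba, Bdnf, Scg2, Homer1 and uncalled pathway members were added for context after their values were seen. Nothing says that pools were prepared on separate days, so p-values measure the spread between these libraries.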

Additional observations from a re-analysis of the deposited data

Results flagged for a closer look

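All 12 called genes stand here because the test of a difference between fractions is itself what called them. The IP minus input differences on the log2 scale were 2.52 for Npy, 2.32 for Ptgs1, 1.95 for Unc5b, 1.76 for Ednrb and 1.48 for Rgs10. On the other side they were -1.30 for Ralb, -1.33 for Sh3bp4, -1.55 for Klf3, -1.62 for Thbd, -1.91 for Itpkb, -2.0 for Cebpd and -2.70 for Egfl6. Groups of 3 libraries are too small for a check of single outlying libraries.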

How the results depend on the processing

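The 12 calls held under relative log expression factors, upper-quartile factors, no filter, the stricter filter, DESeq2 and the replicate block. Counts of differences higher and lower in the IP were 9 and 8 without a filter, 37 and 46 with DESeq2, and 26 and 31 with the replicate block of lysate pools, against 5 and 7. Leaving out 1 library at a time gave 2 to 29 higher and 3 to 39 lower. Kainic acid IP replicates 1 and 2 moved these counts most: without replicate 1 they were 24 and 39, and without replicate 2 they were 29 and 14. From 1 to 7 of the 12 calls ended without each of the other 10 libraries, and 7 without PBS IP replicate 3, PBS input replicate 1 or 3 or kainic acid input replicate 3. Signs turned for uncalled values only: with a library left out, Bdnf ran from -0.29 to 0.12, being above 0 without kainic acid IP replicate 2 (0.12) or kainic acid input replicate 1 (0.041). Inhba ran from -0.011 to 0.24, being below 0 without PBS IP replicate 1 (-0.00812) or kainic acid input replicate 3 (-0.011). In the PV line the counts were 3 and 4 with DESeq2, 4 and 5 with the replicate block and 4 and 6 with replicates 1 to 3 only, and 1 and 1 to 2 with a library left out. The replicate block changed no other call of the single-fraction counts beyond 1.5 times. Depth limits genes such as Egfl6 and Ptgs1, with as few as 8 and 12 counts in a library.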

Other observations

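Of genes with a mean effect over both fractions of at least 4-fold upward, 342 in number, the median difference was 0.16 on the log2 scale, with 154 values below 0. For 676 genes between 2-fold and 4-fold upward it was 0.15, with 262 below 0. Genes with a mean fall of at least 2-fold numbered 337 and had a median of -0.17, with 201 values below 0. The 10268 genes in between had a median of 0.00 and 5107 values below 0. No test was run on these groups.

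The 10 CA2 and CA3 markers all had differences above 0, as did 5899 of all 11623 genes tested. The marker median was 0.18, and none of the 10 was called. Their sums were 314 to 344 CPM in the PBS IP and 286 to 351 in the kainic acid IP, and 422 to 441 and 344 to 405 in the input. The 8 oligodendrocyte precursor markers had a median of -0.16, with sums of 481 to 531 CPM in the PBS IP and 326 to 420.4 in the kainic acid IP, against 904 to 924 and 860.4 to 939 in the input.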
